A study of Mus musculus with 6 samples.

Results

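Interferon-stimulated T cells were followed in the draining lymph nodes of immunized mice, as the T cells in which at least 3 of 6 interferon-induced transcripts were detected. The 6 were Ifit3, Isg15, Irf7, Oasl1, Slfn5 and Zbp1. A T cell was a droplet with 1 hashtag, at least 500 unique molecular identifiers (UMIs, each standing for 1 captured transcript), at most 10% mitochondrial UMIs and at least 1 UMI of Cd3d, Cd3e or Cd3g. It had no Cd79a or Foxp3 and under 2 UMIs of Ccl5, to keep out B cells, regulatory T cells and strongly Ccl5-expressing cells. Cells of these kinds whose transcripts went undetected can remain. The rule found 98 cells among 3376 such T cells, in a series of 19230 cells that passed the same quality limits. The cells were chosen by the detection of those transcripts, so their levels below are a description and no test was made on them. T cells with none of the 6 transcripts, 2270 cells, served as the reference within each mouse.

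The series held 3 wild-type mice (WT1, WT2, WT3) and 3 Pik3cg knockout mice (KO1, KO2, KO3), all immunized 3 times with NP-Ova in alum and sampled at day 34. Pik3cg encodes the catalytic subunit p110γ of phosphoinositide 3-kinase. The mouse strain, the age and the deleted part of the gene are not given in the sources used here. Cells selected for B cell subsets made up 70% of the suspension and untouched cells the other 30%, so the T cells of these libraries were those that came through a B cell selection or through the untouched portion. All 6 mice were pooled by hashtag and run on 2 droplet lanes, and every mouse had cells in both lanes. The quality-passed cells per mouse numbered 2543 to 4053, with medians of 1981 to 2474 UMIs. Among the reference T cells of WT1, WT2 and WT3, Pik3cg stood at 18.6, 20.02 and 28.3 counts per 1000000 UMIs (CPM), and in those of KO1, KO2 and KO3 at 26.6, 35.3 and 19.2 CPM. The genotypes overlapped in that level, and whether the captured 5′ tags lie inside the deletion is not known, so Pik3cg did not check the genotype, which rests on the key of the hashtag table.

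Type I interferons bind the receptor pair IFNAR1 and IFNAR2, whose kinases JAK1 and TYK2 activate transcription factors such as STAT2. With IRF9 these form a complex that binds interferon-stimulated response elements, a DNA sequence built from repeats of GAAA, and turns on genes that block viral replication, sense nucleic acids and tag proteins with the ubiquitin-like protein ISG15. Interferon γ acts through a receptor of its own and a related route. Lymph node T cells are known to carry such transcripts when interferon is present, while naive cells also depend on survival signals from IL-7.

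Promoters of genes on which the selection or the results turn are shown because they differ in exact matches to 1 form of the response element. The stretches differ in length, 143 bases for Irf7, 182 for Ifit1, 198 for Oas3 and 200 for Isg15, Ifit3 and Xaf1. Inexact forms of the element were not searched for. The sequences are from RefSeq on GRCm38.p6, read 5′ to 3′ on the gene's strand, and end just before the first annotated base of the gene. Capitals mark matches to GAAANNGAAA on either strand (its reverse complement is TTTCNNTTTC), and overlapping matches run together. Isg15 (chr4:156200819-156201018, minus strand), the ubiquitin-like modifier, had 3 overlapping matches beginning 78, 72 and 66 bases before its start. Ifit3 (chr19:34583329-34583528, plus strand) and Ifit1 (chr19:34640689-34640870, plus strand), neighbours that encode inhibitors of viral RNA translation, had 2 matches each. Oas3 (chr5:120777662-120777859, minus strand), an enzyme that answers double-stranded RNA, had 1. Irf7 (chr7:141266482-141266624, minus strand), a transcription factor of the interferon response, and Xaf1 (chr11:72301429-72301628, plus strand), which promotes cell death, had none in this window.
Isg15: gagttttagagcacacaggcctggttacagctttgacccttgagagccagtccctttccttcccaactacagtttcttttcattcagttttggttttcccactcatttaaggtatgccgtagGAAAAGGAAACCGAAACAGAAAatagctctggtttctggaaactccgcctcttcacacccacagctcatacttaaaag
Ifit3: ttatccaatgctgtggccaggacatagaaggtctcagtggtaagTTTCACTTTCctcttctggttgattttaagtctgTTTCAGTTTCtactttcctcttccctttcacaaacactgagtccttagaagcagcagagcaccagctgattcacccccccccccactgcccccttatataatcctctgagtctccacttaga
Ifit1: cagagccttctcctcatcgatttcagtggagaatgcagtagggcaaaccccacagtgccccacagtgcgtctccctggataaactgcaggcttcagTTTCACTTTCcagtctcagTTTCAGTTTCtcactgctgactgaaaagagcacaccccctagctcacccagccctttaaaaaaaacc
Oas3: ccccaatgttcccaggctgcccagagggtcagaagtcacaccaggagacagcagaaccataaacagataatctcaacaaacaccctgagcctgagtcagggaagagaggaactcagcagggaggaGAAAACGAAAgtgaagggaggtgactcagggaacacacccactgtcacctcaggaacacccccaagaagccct
Irf7: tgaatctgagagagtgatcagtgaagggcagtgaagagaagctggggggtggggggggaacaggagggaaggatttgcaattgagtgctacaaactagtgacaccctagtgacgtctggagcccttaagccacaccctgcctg
Xaf1: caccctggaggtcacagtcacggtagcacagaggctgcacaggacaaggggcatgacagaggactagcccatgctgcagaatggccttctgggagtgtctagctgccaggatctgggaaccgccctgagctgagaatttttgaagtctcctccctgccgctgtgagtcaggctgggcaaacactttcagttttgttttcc

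Of the 6 selecting transcripts, Isg15 was detected in 90 of the 98 interferon-stimulated T cells, Slfn5 in 73, Zbp1 in 66, Ifit3 and Irf7 in 48 each and Oasl1 in 25. Slfn5 is a Schlafen protein, Zbp1 a sensor of Z-form nucleic acid and Oasl1 a relative of the oligoadenylate synthetases. Most of the cells were close to the limit: 57 had 3 of the 6, 30 had 4, 7 had 5 and 4 had all 6. Just outside it, 199 T cells had 2 and 809 had 1. The summed Isg15 level of the selected cells was 605, 959 and 587 CPM in the WT mice (WT1, WT2, WT3) and 1533, 417 and 507 CPM in the KO mice (KO1, KO2, KO3), so KO1 was the highest of the 6 mice. Irf7 had another order, with 417 CPM from 6 UMIs in KO2 and 126 to 286 CPM in the other mice.

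A single animal, KO1, held nearly as many of these cells as the other 5 together. The selected cells numbered 8 of 580 T cells in WT1 (1.38%), 19 of 899 in WT2 (2.11%), 15 of 765 in WT3 (1.96%), 45 of 318 in KO1 (14.2%), 6 of 485 in KO2 (1.24%) and 5 of 329 in KO3 (1.52%). The exact binomial 95% interval of KO1 ran from 10.5% to 18.5%, and the highest upper bound among the other mice was 3.51% in KO3; these intervals cover counting error only. The mean share was 1.82% ± 0.387 (SD, n = 3) in WT and 5.64% ± 7.38 (SD, n = 3) in KO mice, and the difference did not pass an exact permutation test (difference 3.82 percentage points, two-sided p = 0.9, Benjamini-Hochberg 1 over 3 share tests; 0.1 is the smallest p that 3 against 3 mice allow). Without KO1 the difference was -0.439 points. Because deeper cells show more transcripts, each T cell was also thinned to 1000 UMIs: 19 of 310 cells (6.13%) then passed in KO1, 6 of 887 (0.676%) in WT2, 3 of 746 (0.402%) in WT3 and 2 of 322 (0.621%) in KO3. None of 574 passed in WT1 and none of 473 in KO2.

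KO1 was also the highest mouse among B cells. Among B cells with Cd79a, no Cd3 transcript and under 2 of 6 germinal centre transcripts, the share with at least 3 of the 6 interferon transcripts was 1.05% in WT1, 2.15% in WT2, 2.61% in WT3, 17.1% in KO1, 0.566% in KO2 and 0.556% in KO3. KO1 was therefore the animal that stood apart in both lineages, in both lanes (27 of its selected T cells in lane 1 and 18 in lane 2). Total counts of called genes and the share difference between genotypes are given with and without it. The list counts, the motif shares and most single-gene fold changes below come only from fits that included KO1.

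**Figure D1:**
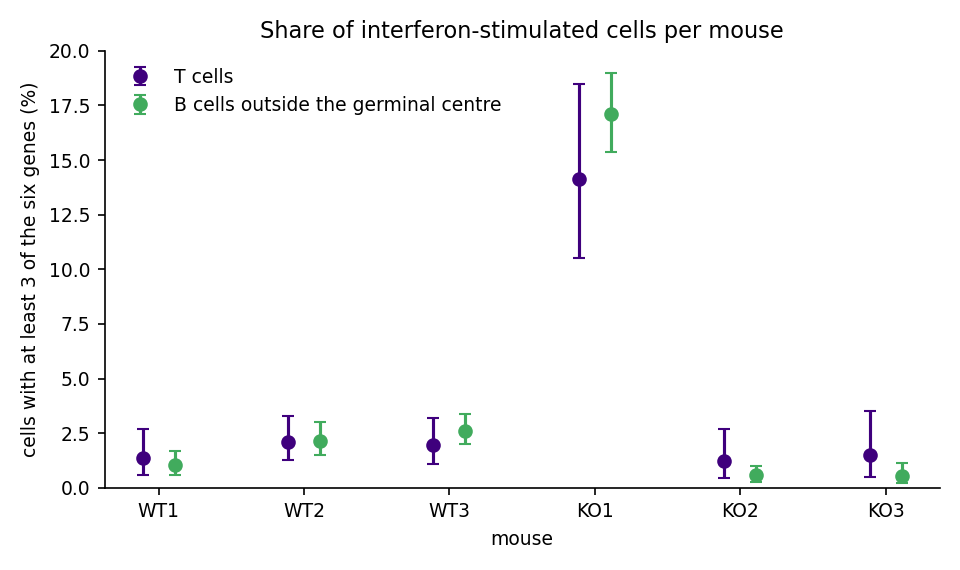
Percentage of cells (y axis) with at least 3 of the 6 interferon transcripts in each mouse (x axis), for T cells and for B cells outside the germinal centre; bars are exact binomial 95% intervals. KO1 sits at 14.2% of T cells and 17.1% of B cells, and the other 5 mice sit at or below 2.61%.

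T cell markers stood at similar levels in both states. The 12 markers summed to 4312 to 5896 CPM in the selected cells of the 6 mice and to 4783 to 5129 CPM in the reference. Of the 12, Cd3d, Cd3e and Cd3g entered the rule for both states, so their share of the sum is no check. None of the other 9 was called in the state comparison below, with a median log2 fold change of -0.05. The median depth was 2577 UMIs per selected cell and 2411 per reference cell, with 1.33% and 1.46% mitochondrial UMIs. B cell markers (11 genes, Cd79a at 0 by the rule) summed to 169 to 2516 CPM against 288 to 738 CPM, the highest in WT3 and WT1, where 1 cell each held 84 of 88 and 19 of 19 Cd74 UMIs. In WT1, 1 selected cell had a B cell receptor contig. Over all mice 11 of 98 selected cells had a contig or any B cell transcript of a short list that included Ms4a1 and Cd79b. In the reference 88 of 2270 cells did, a smaller share. In KO1 the counts were 7 of 45 selected and 3 of 126 reference cells, while KO2 and KO3 had 0 such selected cells. The markers of macrophages and monocytes reached at most 62.9 CPM and those of natural killer cells at most 75.6 CPM. Regulatory T markers (4 genes, Foxp3 at 0 by the rule) summed to 62.9 to 254 CPM against 55.9 to 143 CPM. Among them Ikzf2 was higher in the selected cells of all 6 mice. Markers of γδ T cells summed to 0 to 169 CPM against 22.5 to 69.8 CPM. The 1 tested gene of each of these 2 lists was not called. The plasmacytoid dendritic list was 151 to 874.69 CPM against 115 to 168 CPM, but its defining gene Siglech was at 0 in every selected cell and the interferon-induced Bst2 is one of its 5 members.

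Against the reference T cells of the same mouse, a broad antiviral programme outside the 6 selecting genes was higher in the interferon-stimulated T cells. The fit used the mice with at least 10 cells in each state (WT2, WT3 and KO1, 79 selected cells), and 67 of 2739 tested genes were higher and 4 lower at an adjusted p under 0.05 (edgeR quasi-likelihood test on UMIs summed per mouse and state, mouse as a block). That is 2.45% of tested genes higher and 0.146% lower, and the median log2 fold change over all tested genes was -0.02. The 6 selecting genes were left out of the tests. Other genes that vary with them from cell to cell were favoured by the choice of cells, so the counts below describe what accompanied the selecting transcripts.

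Of 18 tested antiviral effectors 13 were higher and none lower, with a median log2 fold change of 1.87. The largest fold change of any gene chosen for description belonged to Isg20, which the list does not hold. Isg20, an exonuclease that degrades viral RNA, stood at 118, 62.9 and 409 CPM in the selected cells of WT2, WT3 and KO1 (7, 3 and 51 UMIs) and at 11.3, 8.66 and 9.97 CPM in the reference. The states did not overlap, and the log2 fold change was 3.92 (SE 0.408, adjusted p = 5.607e-06). Ifit1 was at 118, 126 and 289 CPM against 18.8, 8.66 and 3.32 CPM (log2 fold change 3.71, SE 0.450, adjusted p = 3.05e-05). Bst2, which tethers budding virions to the cell surface, was at 421, 377 and 819 CPM against 111, 96.8 and 103 CPM, a log2 fold change of 2.31. The most abundant was Ifi27l2a, a small mitochondrial protein of the interferon response, at 2794, 2160 and 4245 CPM against 829, 699.8 and 1263 CPM (log2 fold change 1.71, SE 0.0863, adjusted p = 3.958e-11). Its reference level in KO1 was thus above that of the other mice, as was its selected level. Oas3 (log2 fold change 2.87), Xaf1 (2.65), Rtp4 (2.43) and Samhd1, which depletes nucleotides (1.38), were higher as well.

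Sensors and the ubiquitin machinery followed the same course. Of 8 tested RNA and DNA sensors 7 were higher (median log2 fold change 1.56), most of them from the Ifi200 cluster: Ifi209 2.08, Ifi208 2.03, Ifi203 1.64, Mndal 1.58 and Ifi206 1.55. Among 11 genes of ISG15 conjugation, ubiquitin ligases and ADP-ribosyltransferases 7 were higher (median 1.72). Rnf213, a giant ubiquitin ligase, was at 825, 440 and 971 CPM in the selected cells of WT2, WT3 and KO1 and at 111, 114 and 183 CPM in the reference (log2 fold change 2.46, SE 0.218, adjusted p = 5.764e-07). Every selected value lay above every reference value. Parp9 (2.46), Parp14 (1.97), Herc6, a ligase for ISG15 (2.05), and Trim30a (2.05) were also called.

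Guanylate-binding proteins and related GTPases, which attack membranes of intracellular pathogens, were higher for 6 of 7 tested members (median log2 fold change 2.03). Gbp6 was at 118, 105 and 120 CPM against 18.1, 12.6 and 26.6 CPM in WT2, WT3 and KO1 (log2 fold change 2.59). Gbp2 (2.25), Gbp9 (2.05), Igtp (2.03) and Ifi47 (1.42) were called too. Schlafen genes were higher for 2 of 3 tested members, Slfn8 by 1.85 and Slfn1 by 1.46. Members of the Gbp, Ifi200, Schlafen, Ifit and H2-T families are near copies of one another, and the sources used here do not say how the deposited counting assigned shared reads, so the split within a family is uncertain.

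Among the transcription factors of the pathway 2 of 7 were higher. Stat2 was at 67.3, 62.9 and 193 CPM against 16.3, 18.1 and 26.6 CPM (log2 fold change 2.36). Irf9, its partner in the complex, missed the threshold at a log2 fold change of 0.98 (SE 0.328, adjusted p = 0.2039), as did Irf1 at 0.60 (adjusted p = 0.5323). None of the 4 tested receptor and kinase genes was called: the log2 fold change was -0.23 for Ifnar2, -0.11 for Ifngr1 and -0.19 for Jak1. Of 7 tested genes in a list headed feedback inhibitors 2 were higher, Trafd1 (2.29) and Sp100 (0.86). The heading is a grouping made for description, and inhibition by its members, Sp100 among them, was not measured. Sp100 was higher in the selected cells of all 6 mice and Trafd1 in those of 3. Trafd1 had no UMI in the selected cells of WT1, KO2 and KO3.

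Antigen presentation moved in part. Of 20 tested class I genes 5 were higher, with a list median of 0.50. They were the non-classical class I genes H2-T22 (1.41) and H2-T23 (0.84), the immunoproteasome subunits Psmb10 (1.17) and Psmb8 (0.73), and the proteasome activator Psme1 (0.76). The abundant classical chains did not pass: B2m was at 1683, 1824 and 2014 CPM against 1431, 1477 and 1508 CPM in WT2, WT3 and KO1 (log2 fold change 0.32, adjusted p = 0.07054), and H2-K1 had a log2 fold change of 0.01. Of 4 tested Ly6 surface proteins 2 were called. Ly6a, the stem cell antigen Sca-1, was at 236, 210 and 810 CPM against 101, 131 and 159 CPM (log2 fold change 1.58), and Ly6e at 0.80 was not higher in WT3.

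Outside the interferon lists fewer genes passed. Plac8 was at 219, 189 and 201 CPM against 34.4, 22.8 and 39.9 CPM in WT2, WT3 and KO1 (log2 fold change 2.65, adjusted p = 3.383e-05). In the other mice it had no UMI in the selected cells of WT1 and KO3 and 1 in those of KO2. Ppa1, a pyrophosphatase, had a log2 fold change of 2.49 and Daxx, a regulator of cell death and chromatin, 2.08; Ddx60, a helicase of the RNA sensing route, had 2.75. The 4 lower genes were Il7r, St8sia6, Gnl3 and Cmss1. Il7r, the receptor subunit for IL-7, was at 168, 126 and 241 CPM in the selected cells and at 354, 402 and 449 CPM in the reference (log2 fold change -1.12, SE 0.226, adjusted p = 0.00523), and it was lower in the selected cells of all 6 mice. Gnl3, a nucleolar protein, had a log2 fold change of -2.06 (adjusted p = 0.03383) and Cmss1 one of -0.29 (adjusted p = 0.02969). St8sia6, a sialyltransferase, rested on 16.8, 0 and 16.05 CPM in the selected cells, and its adjusted p was 0.04903.

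The wider T cell identity showed few calls, though some lists leaned to 1 side. Log2 fold changes were positive for 3 of 17 naive and central memory genes and 8 of 80 ribosomal protein genes. They were positive for 0 of 12 mitochondrially encoded, 7 of 7 effector and cytotoxic and 9 of 19 T cell receptor signalling genes. The 2 tested CD4 T cell markers had a median of -0.88 and the 2 CD8 markers one of 0.17. No list was tested as a set. Of 17 tested naive and central memory genes only Il7r was called, with a list median of -0.40; Tcf7, a transcription factor of naive and memory cells, had a log2 fold change of -0.0033 (SE 0.172) and Ccr7 one of -0.40. None of 19 T cell receptor signalling genes (median -0.05), 7 early activation genes (0.18), 7 effector and cytotoxic genes (0.66), 3 follicular helper genes (0.37), 80 ribosomal protein genes (-0.10), 12 mitochondrially encoded genes (-0.20), 13 dissociation and stress genes (-0.01) or 5 genes of PI3K subunits and phosphatases (-0.20) was called. The 2 tested cell cycle genes had a median of -0.39. With 3 mice and 79 selected cells, a gene that missed the threshold is not shown to be equal between the states.

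**Figure D2:**
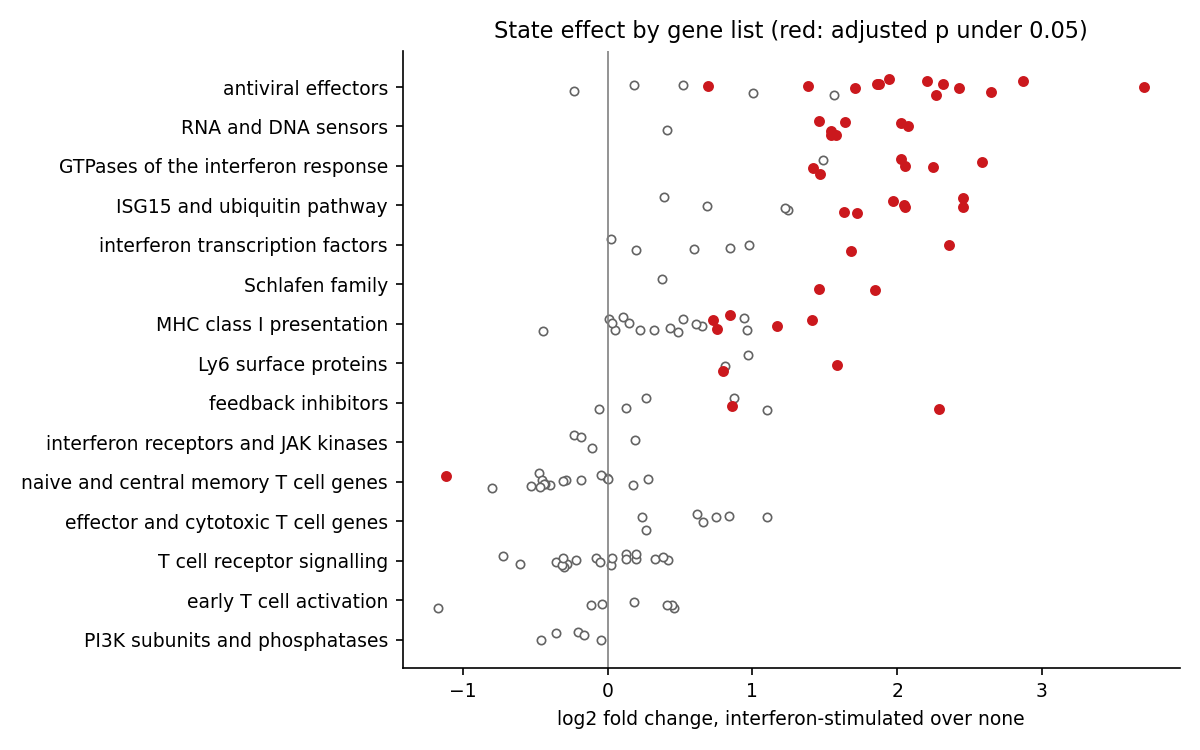
Log2 fold change (x axis) of each tested gene in 15 lists (y axis), interferon-stimulated T cells over T cells with none of the 6 transcripts in WT2, WT3 and KO1; each point is a gene, and red points have an adjusted p under 0.05. The red points lie in the interferon lists at positive values, with Il7r at -1.12 as the red point on the negative side.

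These counts lean on KO1, which gave 45 of the 79 selected cells in the fit. With WT2 and WT3 alone 6 genes were called, of which 3 were among the 71, and 41 of the 44 genes chosen for description lost their call at unchanged direction. With at least 5 cells per mouse and state, all 6 mice entered and 50 genes were called, 43 of them shared. The same fit without KO1, an alternative added after seeing the data, called 25 genes, 22 of them shared: Rnf213 had a log2 fold change of 2.02, Ifi27l2a 1.70, Bst2 1.73 and Il7r -1.44.

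The 3 mice outside the fit gave a second look at the same genes. WT1, KO2 and KO3 had 19 selected and 1007 reference cells together, chosen by the same 6 transcripts. In their summed UMIs 56 of the 67 genes called higher were higher in the selected cells (83.6%), beside 1303 of all 2739 tested genes (47.6%). Of the 4 genes called lower, 2 were again lower, Il7r and Gnl3. The other 2 were higher in the selected cells, Cmss1 at 6719 against 5535 CPM and St8sia6 at 75.9 against 59.2 CPM, from 4 UMIs. Ifi27l2a was at 2873, 3332 and 2959 CPM in the selected cells of WT1, KO2 and KO3 and at 723, 575 and 738 CPM in the reference, so no value of one state reached the other. Isg20 was at 113 CPM in WT1 and without a UMI in the 6 and 5 selected cells of KO2 and KO3, and Stat2 had no UMI in any of these 19 cells, where a count of that size is near the limit of detection. Over all 6 mice, 24 of the 67 genes were higher in the selected cells of every mouse and 27 in 5 mice. That count includes WT2, WT3 and KO1, whose UMIs made the calls, so agreement in them was largely set beforehand. The same count over all tested genes was not taken.

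**Figure D3:**
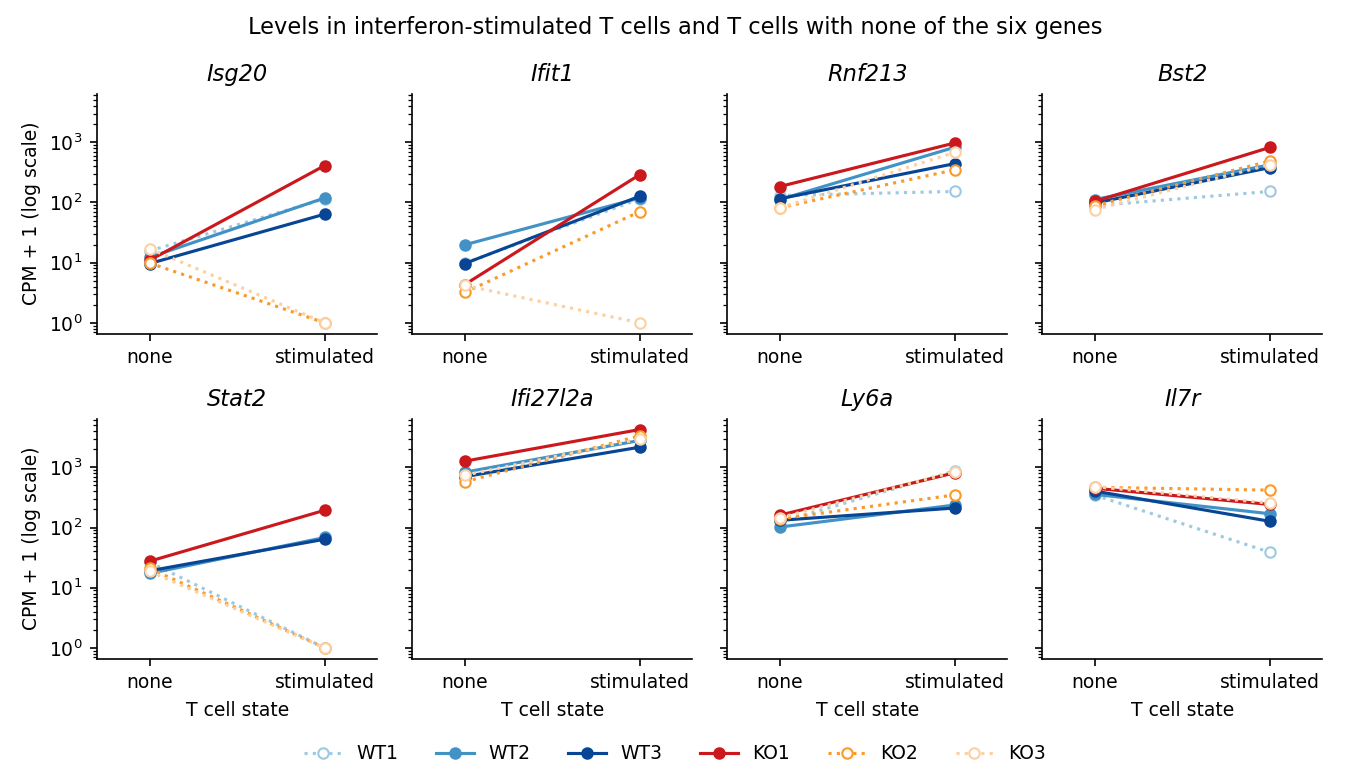
Level of 8 genes (y axis, CPM + 1 on a log scale) in T cells with none of the 6 transcripts and in interferon-stimulated T cells (x axis); each line is a mouse, solid with filled points for the mice of the fit (WT2, WT3, KO1) and dotted with open points for the others. Ifi27l2a, Bst2, Rnf213 and Ly6a climb in all 6 mice, Il7r falls in all 6, and Isg20 reaches 0 CPM in KO2 and KO3.

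The motif printed in capitals above stood in front of a larger share of the called genes than of the others. Of 67 genes called higher, 56 had an entry in the promoter table (250 bases before to 50 after the start), and 23 of these held GAAANNGAAA on either strand (41.1%). The share was 4.39% among 2142 tested and uncalled genes with an entry, 3.99% among all 27025 genes of the table and 3.44% of its 32851 windows. None of the 4 genes called lower held it. Among the holders were Bst2, Ddx60, Eif2ak2, Gbp2, H2-T22, H2-T23, Psme1, Stat2 and Trim30a. A match says only that these letters stand in the window, and the absence of a match says nothing on binding elsewhere.

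In each of the 6 mice the level of the programme was higher at every step from 0 to 3 detected transcripts. The summed level of 102 interferon-list genes outside the rule was 5143 to 5487.5 CPM in T cells with none of the 6 transcripts of WT1, WT2, WT3, KO2 and KO3, 5848 to 6781 CPM with 1, 7469 to 10951 CPM with 2 and 8915 to 12288 CPM with 3. WT2 and WT3 reached 18248 and 16141 CPM with 4. KO1 stood at 6652, 8874, 11523 and 18097 CPM with 0, 1, 2 and 3 of the transcripts, above each of the other 5 mice, and at 24464 CPM with 4, above WT2 and WT3. With 5 transcripts its 3 cells were at 24197 CPM, slightly below its level with 4, and its 4 cells with all 6 were at 32619 CPM. Other mice had under 3 cells at those last steps and are not given. Its T cells in which none of the 6 was detected were therefore also higher than those of the other 5 mice. Per cell, the median was 164.5 interferon-list UMIs per 10000 in the selected cells, 50.5 in the reference and 88.25 in cells with 2 transcripts, just below the limit. No test was made, because the lists follow the same programme as the rule.

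**Figure D4:**
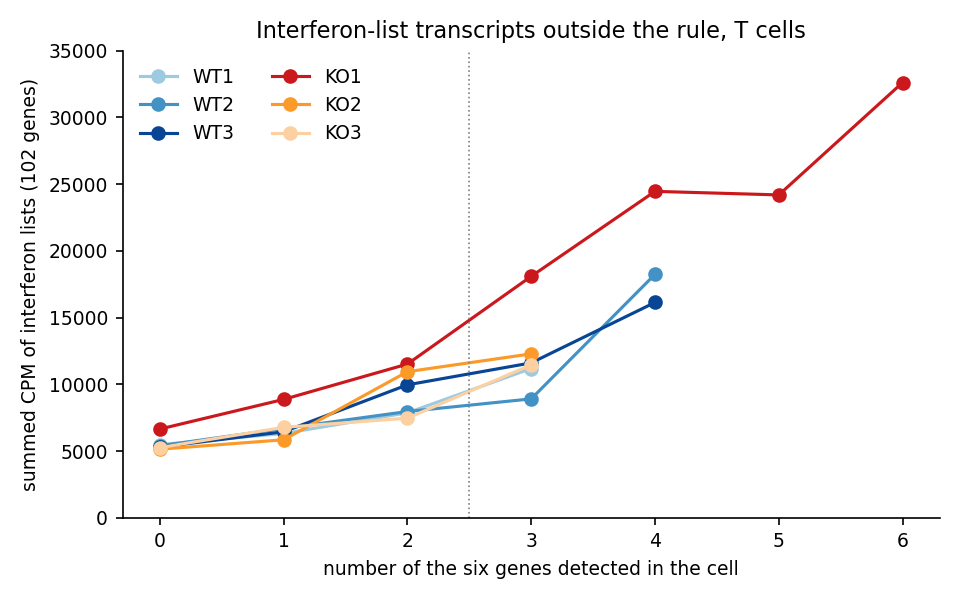
Summed level of 102 interferon-list genes outside the rule (y axis, CPM) in T cells by the number of the 6 selecting transcripts detected (x axis); each line is a mouse, and groups under 3 cells are not drawn. The dotted line marks the limit of the rule. KO1 runs above the other 5 mice from 0 to 3 transcripts and above WT2 and WT3 at 4, and it alone is drawn at 5 (24197 CPM) and 6 (32619 CPM).

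Both T cell lineages held the state. By Cd4 and Cd8b1, 14 of the 98 cells were CD4, 35 were CD8 and 49 had neither transcript; no cell had both. The selected share among CD4 cells was 2.61%, 0%, 1.99%, 13.2%, 1.19% and 3.23% in WT1, WT2, WT3, KO1, KO2 and KO3, and among CD8 cells 0.481%, 2.56%, 2.64%, 13.9%, 1.33% and 0.893%. The 0 of 146 CD4 cells in WT2 allows a share of up to 2.06% by the limit of 3 counts, and its exact 95% interval reaches 2.49%. The mean difference of CD8 minus CD4 was -0.0626 percentage points and was positive in 4 of 6 mice (exact permutation test within mouse, two-sided p = 1, adjusted 1), which did not pass the threshold, and 0.03125 is the smallest p that 6 pairs allow. CD8 cells made up 61.7% ± 27.9 (SD, n = 6) of the CD4 and CD8 cells in the state and 68.0% ± 5.14 (SD, n = 6) in the reference, a difference of -6.38 points (exact permutation p = 0.594, adjusted 1). KO1 was the highest mouse in both lineages. The 102 interferon-list genes summed to 25431 CPM in the 5 CD4 cells of KO1 and to 12156 to 15178 CPM in the 1 to 3 CD4 cells of WT1, WT3, KO2 and KO3, against 5158 to 6300 CPM in reference CD4 cells. In selected CD8 cells they summed to 9132 CPM in WT1 (1 cell), 11219 CPM in WT2, 11845 CPM in WT3 and 15500 CPM in KO1, against 5120 to 6214 CPM in the reference CD8 cells of these mice. In KO2 and KO3 the selected CD8 cells (2 and 1) were below the reference, at 4874 against 5019 CPM and at 4666 against 5402 CPM. In each of the 5 mice with selected cells of both lineages, the CD8 sum was below the CD4 sum, on few cells and without matching for depth. The 49 selected cells with neither transcript summed to 13067 to 27867 CPM over the 6 mice, against 5119 to 7121 CPM in such reference cells. Their lineage is not known.

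CD8 cells alone showed the same kind of genes at fewer calls. With at least 5 cells per mouse and state (WT2, WT3 and KO1, 31 selected cells), 16 of 1028 tested genes passed (1.56%), 15 higher and 1 lower. Rnf213 was at 583, 444 and 695 CPM against 125, 139 and 174 CPM in WT2, WT3 and KO1 (log2 fold change 1.99, SE 0.244, adjusted p = 0.003354, edgeR). Gbp9 was at 117, 177 and 125 CPM against 32.3, 26.5 and 7.90 CPM, a log2 fold change of 2.48 on 4, 4 and 7 UMIs. Ly6a (2.15), Parp9 (2.05), Ifi209 (1.96), Ifi208 (1.96), Plac8 (1.86) and Ifi27l2a (1.43) were also higher. These 8 genes were named for their small p values. The lower gene was Eef1d, a translation elongation factor subunit, at -1.46. Without KO1 the count was 56, of which 4 were shared, and 49 of the 56 were lower. CD4 cells were too few for a fit, since KO1 alone had 5 selected CD4 cells, and the difference between the lineages was not tested.

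The state effect was compared with that of B cells outside the germinal centre in the same 3 mice. Of 6787 tested genes 6 differed in this fit (0.0884%), all with a smaller effect in T cells, though other settings also called larger ones. Of the 6, 4 belong to the interferon response. Socs1, a feedback inhibitor of JAK kinases, was at 16.8, 83.9 and 136 CPM in selected T cells of WT2, WT3 and KO1 (1, 4 and 17 UMIs) against 36.9, 37.0 and 29.9 CPM in reference T cells. In B cells it was at 92.6, 174 and 130 CPM against 10.2, 11.2 and 9.51 CPM, so its fold change was larger from a lower start (difference of log2 fold changes, T minus B, -2.54, SE 0.416, adjusted p = 0.004597). Ifit2, a translation inhibitor like Ifit1, was at 16.8, 0 and 104 CPM in selected T cells and at 92.6, 146 and 201 CPM in selected B cells (difference -3.10, adjusted p = 0.008086). Ifit1bl1 (-2.71) and Ifi47 (-1.48) completed the group. Ifi47 was at 269, 105 and 337 CPM in selected T cells and at 291, 299 and 317 CPM in selected B cells of WT2, WT3 and KO1. Those levels were near each other in WT2 and KO1 and lower in T cells in WT3. Its reference was higher in T cells, 87.0, 89.0 and 96.4 CPM against 38.4, 38.9 and 57.1 CPM.

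The remaining 2, Sidt1, a transmembrane protein of RNA transport, and Dnajc7, a co-chaperone, had log2 fold changes of -0.37 and -0.74 in T cells and of 1.47 and 1.02 in B cells. The lists had medians of the T minus B difference of -0.46 for 28 antiviral effectors, -0.99 for 15 GTPases, -0.40 for 12 sensors and -0.0044 for 9 transcription factors of the pathway, beside -0.17 over all tested genes. The calls rest on few mice: without WT2 edgeR called 0 genes (395 had an unadjusted p under 0.05), and without KO1 there were 27 calls, 4 of them shared. Of the 27, 5 had a larger effect in T cells. With at least 5 cells per mouse and state all 6 mice entered, and 6 of 40 calls had a larger effect in T cells.

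**Figure D5:**
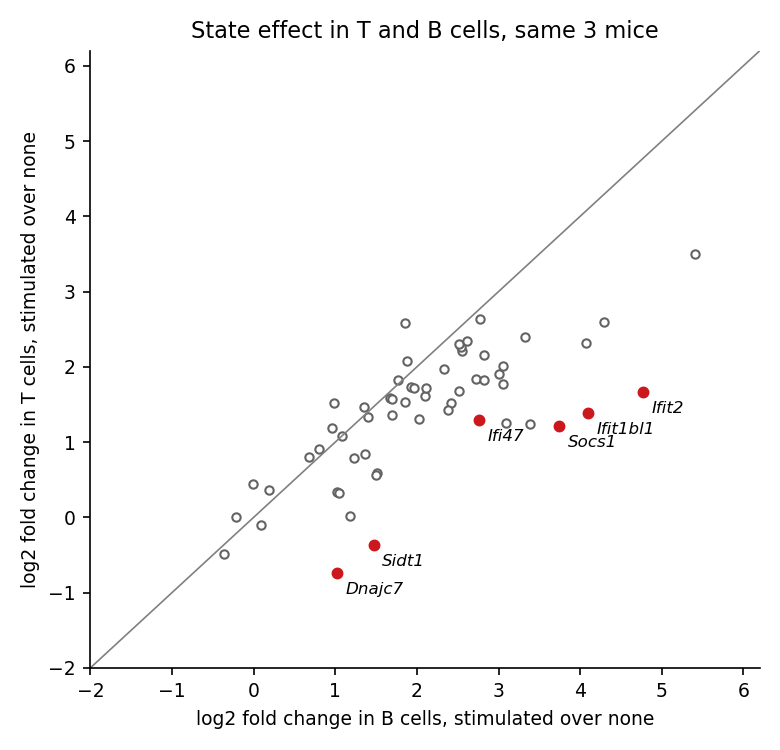
Log2 fold change of stimulated over none in T cells (y axis) against that in B cells outside the germinal centre (x axis), fitted in WT2, WT3 and KO1; open points are 52 interferon-list genes, red points the 6 genes whose effects differed, and the line marks equal effects. The red points lie below the line, Ifit2 at 1.67 in T and 4.77 in B cells.

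Pik3cg genotype was compared within the selected cells, over 3 WT and 3 KO mice with at least 5 cells each. Of 388 tested genes 0 passed (0%), with 15 at an unadjusted p under 0.05 in edgeR. The smallest p values belonged to Rps26, Hspa8, Dock2 and Ifi27l2a, each with an adjusted p of 0.6001. Ifi27l2a was at 2873, 2794 and 2160 CPM in the selected cells of the WT mice and at 4245, 3332 and 2959 CPM in those of the KO mice, a log2 fold change of KO over WT of 0.49 (SE 0.156) with no overlap of the mice. Dock2, a regulator of lymphocyte movement, was at 529, 606 and 734 CPM in WT and 955, 1527 and 1099 CPM in KO mice (0.75, SE 0.234). Hspa8, a constitutive chaperone, was at 529, 488 and 713 CPM in WT and 297, 139 and 338 CPM in KO mice (-1.07, SE 0.331). With 5 to 45 cells per mouse these differences did not hold after adjustment over all tested genes.

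The effect of the state differed between KO and WT for 2 of 2625 tested genes (0.0762%), Cd74 and Cdk8. Cd74, the invariant chain that B cells carry at high levels, was at 718, 67.3 and 1845 CPM in the selected cells of the WT mice and at 112, 208 and 84.5 CPM in those of the KO mice, each in the order of their numbers. One cell held all 19 of the Cd74 UMIs in WT1, and 1 cell held 84 of 88 in WT3, where the level without that cell was 92.8 CPM. In the reference of KO1, at 356 CPM, 1 cell held 68 of 107 UMIs. Cdk8, a kinase of the Mediator complex, was at 18349 CPM in WT3, where 1 cell held 615 of 875 UMIs, and at 6022 CPM without that cell. For none of the interferon lists outside the rule was a member called in this comparison.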

How the data were processed

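Single-cell 5′ RNA libraries of 2 lanes, hashtagged for 6 mice, were analysed from the deposited matrices of UMI counts. Per the file headers the counting used Cell Ranger 7.0.1, and per the submitters' processing notes the genome build was mm10. The authors' deposited hashtag table gave the mouse, and the deposited contig tables, with UMI counts per contig, marked cells with a B cell receptor. The lanes shared 241 barcodes, so cells were keyed by lane and barcode. Of 23516 barcodes, 19270 had 1 hashtag and 19230 passed the limits on UMIs and mitochondrial share. Mouse numbers only name animals and pair none of them.

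UMIs were summed per mouse and state and tested with edgeR 4.0.16 (R 4.3.3; quasi-likelihood, TMM, filterByExpr, Benjamini-Hochberg over all tested genes, SE from the log2 fold change and F), with the mouse as a block because both states come from the same animals. Selecting genes stayed in library sizes and out of the tests. CPM is per 1000000 UMIs of the summed cells. A minimum of 10 cells per mouse and state was planned. The CD8 and genotype comparisons could not be fitted at 10 and used 5, a change decided from cell counts. Genes described were the 12 largest rises and 12 largest falls past the threshold with at least 20 CPM and the same direction in every mouse of the fit, up to 5 called members per list, and up to 8 in other comparisons. Isg15, Ifit3, Irf7, Ifit1, Oas3 and Xaf1 promoters, uncalled members, Eef1d and the gene values set beside a call were added for description. Members and lists were chosen with earlier results of these data known. Alternatives included DESeq2 1.42.0, whose missing adjusted p values were left out. Scrublet (scanpy 1.11.5) on all barcodes called 0 doublets. It was run again on the kept cells after that result was seen and called 72 and 78 in the lanes, none of them a selected T cell. The fitting code was checked on simulated data. Values of a few genes are not reported here.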

Additional observations from a re-analysis of the deposited data

Results flagged for a closer look

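The effect of the interferon state differed between T cells and B cells outside the germinal centre for 6 genes, by a test of the difference itself (edgeR, 3 mice). The T minus B difference in log2 fold change was -2.54 for Socs1, -1.48 for Ifi47, -3.10 for Ifit2, -1.83 for Sidt1, -2.71 for Ifit1bl1 and -1.76 for Dnajc7. Ifit2 rested on 1, 0 and 13 UMIs in the selected T cells of WT2, WT3 and KO1.

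The effect of the state also differed between KO and WT mice for Cd74, by -4.29, and for Cdk8, by -0.88. In both genes single cells carried most of the UMIs of WT3, 84 of 88 for Cd74 and 615 of 875 for Cdk8, and the part of those cells in the calls was not tested.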

How the results depend on the processing

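The state comparison called 71 genes. It called 120 with no filter on low counts (63 higher, 57 lower), 128 with no filters on Foxp3 and Ccl5, and 6 to 93 with 1 mouse left out, the 6 without KO1. An alternative chosen after seeing the data, at least 5 cells per mouse and state with KO1 left out, called 25. Without the mouse as replicate block it called 92 genes, 70 of them shared, and the CD8 comparison 18 in place of 16. That block is the animal itself, and no paired analysis of KO against WT was possible because the hashtag names give the genotypes no shared numbers. The CD8 count was 83 with no filter and 14 to 56 with 1 mouse left out. The T minus B count of 6 became 17 with no filter, 5 larger in T cells, and 40 with at least 5 cells, 6 larger. It was 10 in cells of 1500 to 5000 UMIs, 1 larger, and 0 to 27 with 1 mouse left out, 0 to 5 larger. KO against WT gave 3 with no filter and 0 to 1 with 1 mouse left out, and the state by genotype count of 2 became 4, 1 in cells of 1500 to 5000 UMIs, and 1 to 2. The cause of these changes was not tested.

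The CD8 share difference turned to 1.82 points in thinned cells and 8.63 with at least 4 of the 6 genes, and ran from -13.3 to 0.734 with 1 mouse left out. The CD8 minus CD4 difference was 0.105 in lane 2 and -0.586 to 0.392 with 1 mouse left out, and KO minus WT -0.439 to 6.02. No gene chosen for description reversed in a setting that tested it again, but not every gene was tested in each. In the state fit of all 6 mice 28 kept their call, 3 lost it and the others were not compared. In the summed UMIs of the mice outside the main fit, Cmss1 and St8sia6 went the other way. DESeq2 called 48 genes, all among the 71. The CD4 fit, the CD8 against CD4 state difference and lane 2 alone had too few cells and were not run. With 98 selected cells, genes at a few UMIs per mouse could not be resolved.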

Other observations

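Transcripts of interferons themselves were nearly absent. Over all 19230 kept cells no UMI was counted for any Ifna gene, Ifnb1, Ifne or Ifnl. Ifng had 102 UMIs in 68 cells, none in the interferon-stimulated T cells and 7 in the T cells with none of the 6 transcripts. Ifnk had 9 UMIs and Ifnz 5.

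The selected T cells used many T cell receptor β variable segments. A Trbv transcript was detected in 63 of the 98 cells, with 18 segments seen, and the leading one, Trbv13-1, was in 7 cells (11.1%). In KO1, 24 selected cells carried 15 segments, and the leading one, Trbv1, was in 3. In the reference 1476 of 2270 cells had one, over 25 segments, and Trbv13-2 led with 211 cells (14.3%).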
